A study of Mus musculus with 6 samples.

Results

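The receptors that share the common γ chain, with the kinases JAK1 and JAK3 that they signal through, were examined as 9 genes (Il2ra, Il2rb, Il2rg, Il7r, Il15ra, Il4ra, Il21r, Jak1 and Jak3) taken by symbol from the 25075 gene symbols of a bulk RNA-sequencing count table. All 9 were found. The RNA came from ILC3s (innate lymphoid cells of group 3), gut lymphocytes known for IL-22 and IL-17, which were sorted from mouse small intestine as lineage-negative, CD90.2-positive and KLRG1-negative. Each library came from 2000 cells and 2 ng of RNA and was prepared with Smart-seq2, which copies whole transcripts into cDNA. The mice labelled Batf-deficient (3 libraries) carried the floxed Batf gene and the PLZF-Cre transgene, and the labelled control mice (3 libraries) carried the floxed Batf gene without Cre, both on a B6 background; no age is stated. PLZF-Cre is driven from the gene of a factor that innate lymphoid precursors and innate-like T cells express, so deletion is not limited to ILC3s. The series calls the libraries biological replicates.

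The common γ chain, encoded by Il2rg, is a subunit of the receptors for IL-2, IL-4, IL-7, IL-9, IL-15 and IL-21. It binds JAK3, while the other signalling chain of each receptor binds JAK1, and the paired kinases phosphorylate STAT factors: mainly STAT5 after IL-2, IL-7 and IL-15, STAT6 after IL-4 and STAT3 after IL-21. IL-7 maintains innate lymphoid cells, and IL-15, through the chain encoded by Il2rb, sustains natural killer cells and ILC1s. Loss of IL2RG or JAK3 in humans causes severe combined immunodeficiency without T and NK cells.

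The members lie at the following places in mm10 (GENCODE M21). Il2rg is at chromosome X, 101264378 to 101268255, minus strand. Il2rb and Il7r share a chromosome (chromosome 15, 78479256 to 78495271, minus strand, and chromosome 15, 9505788 to 9530176, minus strand). Il2ra and Il15ra lie close together (chromosome 2, 11642807 to 11693193, plus strand, and chromosome 2, 11705290 to 11734317, plus strand), as do Il4ra and Il21r (chromosome 7, 125552120 to 125579474, plus strand, and chromosome 7, 125603429 to 125633570, plus strand). Jak1 is at chromosome 4, 101152367 to 101265282, minus strand and Jak3 at chromosome 8, 71676296 to 71690575, plus strand.

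Promoter sequences were looked at because most of these genes moved together in the counts and Batf encodes a factor of the AP-1 family. Windows from 250 bases before to 50 after a start site (RefSeq, GRCm38.p6) were at hand for 8 of the 9 genes, all but Il2rb, with a pair of windows for Il15ra. They were searched on both strands for TGANTCA, which AP-1 and BATF bind, TTCNNNGAA, which STATs bind, and TGTGGT, which RUNX factors bind; no matches overlapped each other. Over all 32851 promoter windows of this length, 7.81% held TGANTCA, 8.30% held TTCNNNGAA and 16.8% held TGTGGT. The 4 windows of these genes with a match are printed 5′ to 3′ on the gene's strand, with matches in capitals. They are Il2rg (chrX:101268206-101268505, minus strand), Il7r (chr15:9529827-9530126, minus strand), the second Il15ra start site (chr2:11705462-11705761, plus strand) and Il21r (chr7:125603179-125603478, plus strand).
Il2rg: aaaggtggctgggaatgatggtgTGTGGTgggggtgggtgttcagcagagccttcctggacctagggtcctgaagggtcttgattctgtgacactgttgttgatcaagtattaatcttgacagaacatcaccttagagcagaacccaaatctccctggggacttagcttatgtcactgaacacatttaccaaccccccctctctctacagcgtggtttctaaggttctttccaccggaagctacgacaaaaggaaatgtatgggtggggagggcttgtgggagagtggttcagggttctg
Il7r: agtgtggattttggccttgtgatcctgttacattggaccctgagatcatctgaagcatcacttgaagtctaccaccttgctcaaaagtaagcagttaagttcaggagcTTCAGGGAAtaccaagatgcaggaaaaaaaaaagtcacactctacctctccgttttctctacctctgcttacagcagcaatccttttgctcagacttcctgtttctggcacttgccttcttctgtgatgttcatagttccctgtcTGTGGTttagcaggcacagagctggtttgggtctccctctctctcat
Il15ra, second start site: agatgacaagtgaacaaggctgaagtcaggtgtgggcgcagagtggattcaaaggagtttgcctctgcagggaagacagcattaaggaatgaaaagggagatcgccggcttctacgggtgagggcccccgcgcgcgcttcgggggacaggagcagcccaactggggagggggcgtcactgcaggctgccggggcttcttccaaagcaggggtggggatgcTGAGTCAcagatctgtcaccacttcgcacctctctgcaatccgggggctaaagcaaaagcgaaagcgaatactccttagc
Il21r: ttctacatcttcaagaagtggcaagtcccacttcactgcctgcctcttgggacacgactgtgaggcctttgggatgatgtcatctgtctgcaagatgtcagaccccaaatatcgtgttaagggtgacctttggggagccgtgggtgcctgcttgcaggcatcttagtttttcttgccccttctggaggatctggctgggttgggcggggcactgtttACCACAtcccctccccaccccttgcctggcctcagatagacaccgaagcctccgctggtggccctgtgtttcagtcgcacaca
Il7r held a STAT match 142 bases before its start site and a RUNX match that begins at base 4 after it. Il2rg held a RUNX match 227 bases before its start site and Il21r one 33 bases before. The AP-1 and BATF match in these windows was at the second Il15ra start site, 30 bases before it. The windows of Il2ra, Il4ra, Jak1, Jak3 and the first Il15ra site held none of the 3 motifs. A match describes letters and is not a binding site.

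Total counts were 8228513 to 13615895 in the libraries labelled Batf-deficient and 9080012 to 17334207 in the labelled control libraries, and 3 counts corresponded to between 0.156 and 0.426 CPM, the count relative to the library's TMM-scaled total. With TMM factors the targeted gene went against its label. Batf had 38.3, 41.3 and 41.3 CPM in libraries labelled Batf-deficient, against 15.2, 15.3 and 18.95 CPM in labelled controls (log2 fold change 1.29, SE 0.16, adjusted p by edgeR = 1.70e-05). The libraries were also scaled instead on 11 genes that innate lymphoid and T cells share. With that scaling Batf was called lower, at -1.05 (SE 0.17, edgeR adjusted p = 0.000107). A count summed over a gene cannot tell deleted from remaining exons. ILC3 markers (Il22, Il23r, Kit, Il1r1 and Ahr) were detected in both groups and summed to 0.571% to 0.593% of counts in libraries labelled Batf-deficient and 0.0776% to 0.0908% in labelled controls. Of 15261 genes tested, 64.4% passed the edgeR test at an adjusted p of 0.05, 30.2% as higher and 34.1% as lower in the libraries labelled Batf-deficient; scaled by library totals, 3048 were higher and 6488 lower, against 4612 higher and 5209 lower by TMM. The labelled control libraries held transcripts of other tissue: 5 pancreatic acinar markers made up 4.18% to 4.41% of their counts, where each of the 5 had 1 to 3 counts over all libraries labelled Batf-deficient. Epithelial markers summed to 0.0165% to 0.0196% of counts in libraries labelled Batf-deficient and 0.695% to 0.734% in labelled controls. Such differences can change the scale of every other gene. Levels below use TMM factors, and values with the 11-gene scaling are given beside them. How far either scaling corrects for transcripts of other tissue was not tested. The 11 genes (Bcl11b, Cd247, Lat, Lck, Ptpn22, Rhoh, Sh2d1a, Skap1, Thy1, Txk and Zap70) were chosen with results of these data known. They differed among themselves, with log2 fold changes by TMM from 0.69 for Sh2d1a to 3.63 for Cd247. Under their own scaling Cd247, Thy1 and Zap70 were called higher and Bcl11b, Rhoh and Sh2d1a lower (1.31 for Cd247 to -1.65 for Sh2d1a). Values near 0 with that scaling therefore depend on which genes were chosen. In such bulk samples, fewer cells of a type and less RNA per cell cannot be told apart.

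With TMM factors, transcripts of 8 of the 9 genes were higher in the libraries labelled Batf-deficient, and Il15ra did not pass. The share of all genes called higher, 30.2%, is the background for that count. Fold changes of the 8 ran from 2.30 for Jak1 to 9.998 for Il2rb. Over the 9 genes the median log2 fold change was 2.44, beside 0.02 over all genes tested. With the 11-gene scaling these medians were 0.10 and -2.32, 2 of the genes were called higher (Il2rb and Il21r), 3 lower (Il2ra, Il15ra and Jak1) and 4 not called. Under that scaling 2.14% of all genes were called higher and 85.4% lower, 87.6% in all. The groups did not overlap for 8 of the 9 genes, all higher in libraries labelled Batf-deficient, where 71.2% of all genes tested did not overlap and 34.6% did so as higher. Together the 9 genes took 0.519% to 0.533% of all counts in the libraries labelled Batf-deficient and 0.123% to 0.133% in the labelled control libraries.

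**Figure D1:**
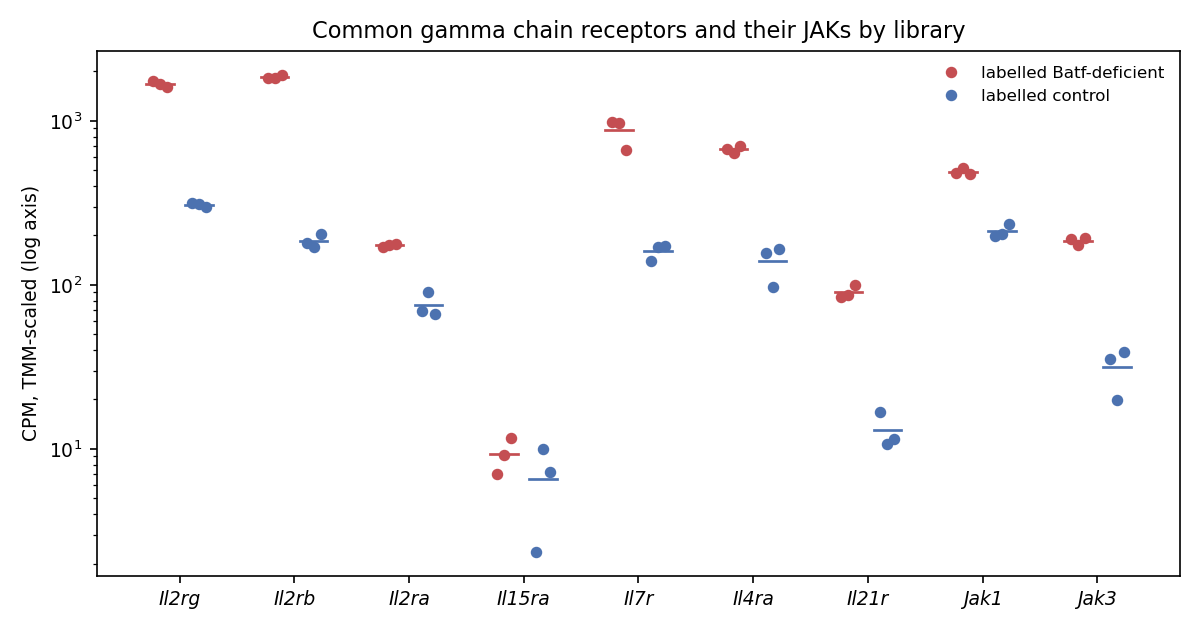
Each point is a library, in TMM-scaled CPM on a log axis, and each line is the mean of 3 libraries; genes are ordered by role, with the shared chain first and the kinases last. The groups do not overlap for any gene but Il15ra.

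The shared chain was the most abundant transcript of the family per length. Il2rg had 1740.2, 1674 and 1602 CPM in libraries labelled Batf-deficient, against 315, 312 and 298 CPM in labelled controls. The lowest library labelled Batf-deficient lay well above the highest labelled control library, and within each group the values were close. The means were 1672 ± 68.96 CPM in libraries labelled Batf-deficient and 309 ± 8.94 CPM in labelled controls (SD, n = 3 each), a 5.42-fold difference (log2 fold change 2.44, SE 0.09, adjusted p by edgeR = 2.78e-10). With the 11-gene scaling the log2 fold change was 0.10 (SE 0.10, edgeR adjusted p = 0.355) and Il2rg was not called.

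Il2rb, the β chain (CD122) that passes on signals of IL-2 and IL-15, had the largest fold change of the family. A change of scaling shifts all genes by nearly the same amount, so this rank is the same under both scalings. Il2rb had 1829, 1813 and 1913 CPM in libraries labelled Batf-deficient, against 181, 171 and 204 CPM in labelled controls. The groups were far apart, by a fitted factor of 9.998 (log2 fold change 3.32, SE 0.10, adjusted p by edgeR = 7.01e-11), and 1.83% of all genes tested had a larger log2 fold change. It remained higher with the 11-gene scaling at 0.99 (SE 0.08, edgeR adjusted p = 3.92e-07). Markers listed for ILC1s, NK cells and T cells were read beside it. Bulk counts cannot tell whether ILC3s or other cells carried these transcripts. By TMM 30.2% of all genes tested were called higher and 34.1% lower. Of 5 ILC1 and NK cell markers, 4 (Tbx21, Ncr1, Klrb1c and Prf1) were called higher and Eomes was not called (log2 fold change 0.12). The list summed to 0.0408% to 0.0429% of counts in libraries labelled Batf-deficient and 0.00588% to 0.00693% in labelled controls. Of 6 T cell markers, 4 (Cd3d, Cd3e, Cd3g and Cd5) were higher, Cd8a was lower and Cd4 was not called, with a sum of 0.0653% to 0.0746% of counts in libraries labelled Batf-deficient and 0.0120% to 0.0141% in labelled controls. Under the 11-gene scaling, Tbx21, Ncr1, Cd3d, Cd3e and Cd3g stayed higher, Eomes, Prf1, Cd4 and Cd8a were lower, and Klrb1c and Cd5 were not called. Of all genes tested, 2.14% were called higher and 85.4% lower under it. No marker of these lists was at 0 in all 3 libraries of a group, and the part of ILC1s, NK cells or T cells in the Il2rb result was not tested.

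The α chains of the IL-2 and IL-15 receptors differed less than the β chain. Il2ra (CD25), which raises the affinity of the receptor for IL-2, had 170.3, 174 and 178 CPM in libraries labelled Batf-deficient, against 69.6, 90.4 and 66.1 CPM in labelled controls. All 3 libraries labelled Batf-deficient were higher, with means of 174 ± 3.89 CPM in libraries labelled Batf-deficient and 75.4 ± 13.2 CPM in labelled controls (SD, n = 3 each; log2 fold change 1.21, SE 0.13, adjusted p by edgeR = 4.70e-06). The 11-gene scaling reversed this to -1.14 (edgeR adjusted p = 2.62e-05). ILC2s also carry CD25. Of 5 ILC2 markers, Gata3, Il1rl1 and Klrg1 were called higher with TMM factors and Areg and Il5 lower. The list summed to 0.0288% to 0.0314% of counts in libraries labelled Batf-deficient and 0.0620% to 0.0662% in labelled controls. Most of the sum in labelled controls was Areg, so the sum does not stand for the whole list. Areg had 172, 176 and 177 CPM in libraries labelled Batf-deficient, against 456, 521 and 533 CPM in labelled controls. Gata3 had 147, 146 and 153 CPM in libraries labelled Batf-deficient, against 70.7, 46.5 and 53.8 CPM in labelled controls. Scaled on the 11 genes, Gata3, Areg and Il5 were lower, and Il1rl1 and Klrg1 were not called. The part of such cells in the Il2ra result was not tested. Il15ra, which binds IL-15 and presents it to neighbouring cells, was the least abundant member. Its counts were 51, 65 and 145 in libraries labelled Batf-deficient, against 25, 175 and 139 in the labelled control libraries, which is 7.07, 9.24 and 11.7 CPM in libraries labelled Batf-deficient, against 2.36, 10.02 and 7.22 CPM in labelled controls. The groups overlapped, control replicate 1 was the lowest of all, and no difference passed with TMM factors (log2 fold change 0.50, SE 0.43, adjusted p by edgeR = 0.329). Under the 11-gene scaling Il15ra was lower, at -1.85 (edgeR adjusted p = 0.00292).

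Il7r encodes the α chain (CD127) of the IL-7 receptor and is a defining surface molecule of innate lymphoid cells. It had 984, 976 and 662 CPM in libraries labelled Batf-deficient, against 139.7, 170.2 and 172 CPM in labelled controls. The groups did not overlap, but replicate 3 labelled Batf-deficient was lower than the other two, and the means were 874 ± 184 CPM in libraries labelled Batf-deficient and 161 ± 18.02 CPM in labelled controls (SD, n = 3 each). The difference was 5.44-fold (log2 fold change 2.44, SE 0.16, adjusted p by edgeR = 7.58e-08), close to that of Il2rg, and 0.11 with the 11-gene scaling, where the call was lost (edgeR adjusted p = 0.543). Relative to Thy1, which encodes the CD90 used for the sort, Il7r stood at 2.19, 2.35 and 1.34 reads per Thy1 read in libraries labelled Batf-deficient, against 3.52, 3.60 and 3.44 in the labelled control libraries. Thy1 itself had 449.6, 415 and 493 CPM in libraries labelled Batf-deficient, against 39.7, 47.3 and 49.9 CPM in labelled controls.

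The receptor chains for IL-4 and IL-21 were higher as well. Il4ra, the α chain for IL-4 that also pairs with the IL-13 receptor, had 672, 639.6 and 705 CPM in libraries labelled Batf-deficient, against 157, 97.6 and 166 CPM in labelled controls. The 3 libraries labelled Batf-deficient were alike, whereas control replicate 2 was lower than the other labelled controls (log2 fold change 2.26, SE 0.18, adjusted p by edgeR = 6.72e-07). With the 11-gene scaling the value was -0.06 (edgeR adjusted p = 0.679). Il21r, the ligand-binding chain for IL-21, had 84.7, 86.5 and 99.6 CPM in libraries labelled Batf-deficient, against 16.7, 10.8 and 11.5 CPM in labelled controls. The groups were well separated, by a fitted factor of 7.04 (log2 fold change 2.82, SE 0.18, adjusted p by edgeR = 4.20e-08), and Il21r stayed higher with the 11-gene scaling at 0.47 (edgeR adjusted p = 0.0339). B cells also use these receptors. Of 3 B cell markers, 2 (Cd79a and Ms4a1) were lower with TMM factors, beside 34.1% of all genes tested, and Cd79b was not called. The markers summed to 0.00215% to 0.00275% of counts in libraries labelled Batf-deficient and 0.00660% to 0.00816% in labelled controls. Their part in these results was not tested.

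The kinases differed from each other. Jak3, which binds the common γ chain and is largely restricted to blood cells, had 189, 175 and 194 CPM in libraries labelled Batf-deficient, against 35.2, 19.98 and 38.9 CPM in labelled controls. The groups were well apart, with control replicate 2 the lowest (log2 fold change 2.57, SE 0.21, adjusted p by edgeR = 1.13e-06). The value was 0.25 with the 11-gene scaling (edgeR adjusted p = 0.215). Jak1, a kinase that most cell types express, had 479, 517 and 471 CPM in libraries labelled Batf-deficient, against 199, 204 and 234 CPM in labelled controls. Here the groups were nearer to each other without overlapping (log2 fold change 1.2, SE 0.10, adjusted p by edgeR = 4.77e-07), and the 11-gene scaling turned the direction, at -1.13 (edgeR adjusted p = 6.44e-07). Reads of Jak3 per read of Jak1 numbered 0.396, 0.339 and 0.411 in libraries labelled Batf-deficient, against 0.177, 0.0978 and 0.167 in the labelled control libraries.

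**Figure D2:**
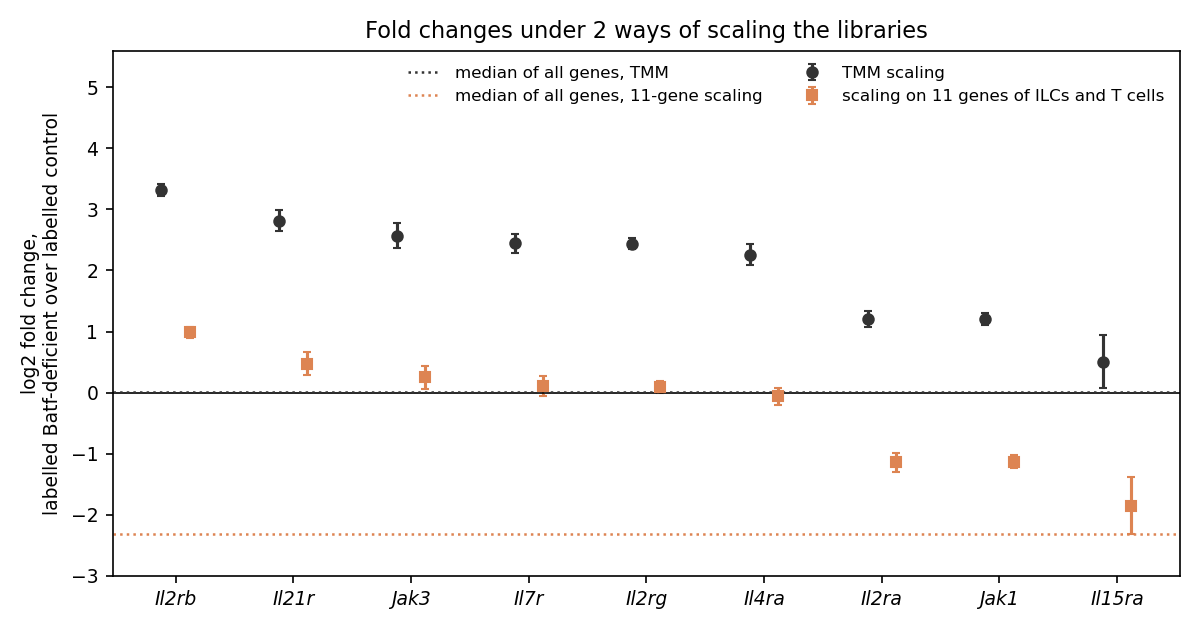
Log2 fold changes (labelled Batf-deficient over labelled control) with SE bars for the 9 genes, by TMM (circles) and by scaling on 11 genes of ILCs and T cells (squares); dotted lines mark the median of all genes, at 0.02 and -2.32. The change of scaling shifts all genes by nearly the same amount, so their order is nearly kept. Il2ra, Jak1 and Il15ra lie below 0 with the 11-gene scaling, and Il4ra lies close to 0, at -0.06.

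Ratios within a library do not depend on how libraries are scaled to each other, so each member was set against Il2rg in the same library. Relative to the shared chain, Il2rb was higher in every library labelled Batf-deficient, Il2ra, Il15ra and Jak1 were lower in every one, and Il7r, Il4ra, Il21r and Jak3 overlapped between groups. Reads of Il2rb per read of Il2rg numbered 1.05, 1.08 and 1.19 in libraries labelled Batf-deficient, against 0.573, 0.549 and 0.682 in labelled controls, a difference in mean log2 ratio of 0.89. Those of Jak1 numbered 0.275, 0.309 and 0.294 in libraries labelled Batf-deficient, against 0.630, 0.655 and 0.783 in labelled controls (difference -1.23). Il2ra had 0.0979, 0.104 and 0.111 in libraries labelled Batf-deficient, against 0.221, 0.290 and 0.222 in labelled controls (difference -1.22). Il15ra, with few reads, had 0.00406, 0.00552 and 0.00728 in libraries labelled Batf-deficient, against 0.00747, 0.0321 and 0.0242 in labelled controls (difference -1.72). Without control replicate 1 that difference was -2.35, and without control replicate 2 it was -1.30. These 4 ratios each had p = 0.10 in the two-sided exact permutation test, the smallest that 3 against 3 libraries allow, and 0.20 after adjustment over the 8 ratios, so none can pass at 0.05 in this design. Il7r kept nearly the same ratio in both groups, at 0.566, 0.583 and 0.413 in libraries labelled Batf-deficient, against 0.443, 0.546 and 0.575 in labelled controls, a difference of -0.01 with exact p = 0.900. For Il4ra, Il21r and Jak3 the differences were -0.14, 0.38 and 0.19 (exact p = 0.600, 0.300 and 0.900). Jak1 is also made in epithelial, stromal and myeloid cells. In the same libraries, markers of the epithelium (5 of 5), the stroma (3 of 3) and macrophages with dendritic cells (5 of 5) were called lower in the libraries labelled Batf-deficient. Of all genes tested, 34.1% were called lower. Among 3 endothelial markers, Kdr and Plvap were lower and Pecam1 was higher. Stromal markers summed to 0.000404% to 0.000661% of counts in libraries labelled Batf-deficient and 0.0506% to 0.0527% in labelled controls, and macrophage and dendritic cell markers to 0.00275% to 0.00321% of counts in libraries labelled Batf-deficient and 0.0359% to 0.0394% in labelled controls. Their part in the ratios was not tested.

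**Figure D3:**
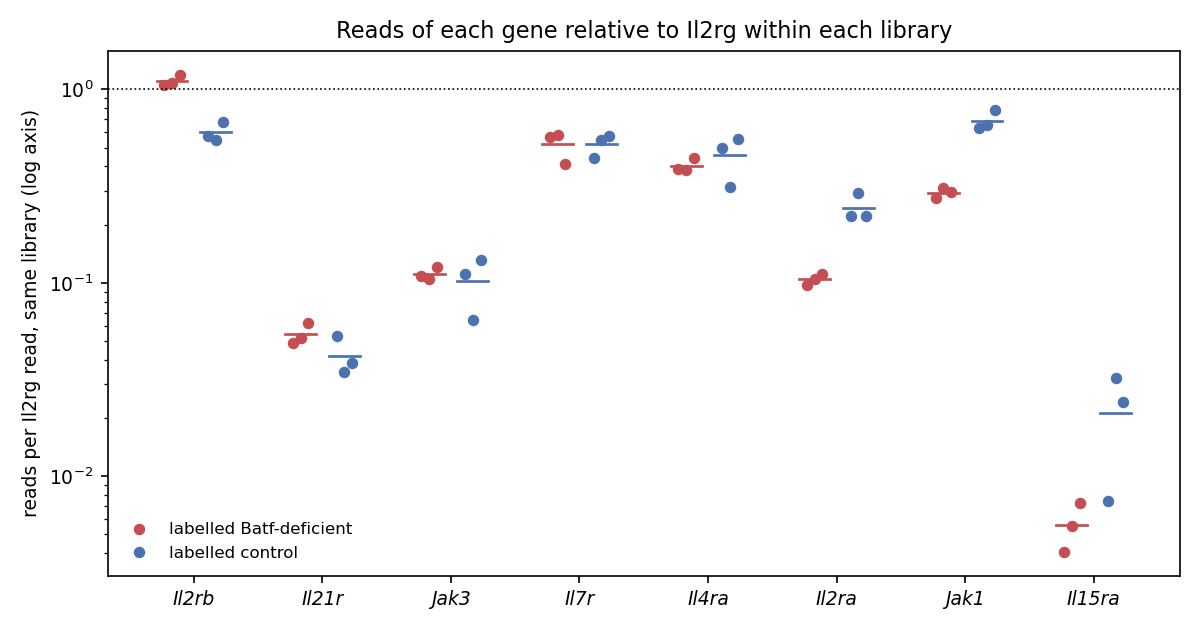
Reads of each gene per read of Il2rg in the same library, on a log axis; points are libraries, lines are means of 3, and the dotted line marks equal numbers of reads. Il2rb is above the dotted line in all 3 libraries labelled Batf-deficient and below it in all 3 labelled control libraries, while Il2ra, Jak1 and Il15ra are lower in the libraries labelled Batf-deficient.

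To compare levels between genes, CPM were divided by the merged exon length of each gene in kilobases. In the libraries labelled Batf-deficient the order was Il2rg (700.5 ± 28.9 CPM per kilobase), Il2rb (432 ± 12.5), Il7r (187 ± 39.5), Il4ra (112 ± 5.43), Jak1 (67.7 ± 3.37), Jak3 (34.8 ± 1.81), Il2ra (30.5 ± 0.682), Il21r (27.2 ± 2.44) and Il15ra (2.10 ± 0.518; SD, n = 3). Of these neighbours, Il2ra and Il21r overlapped. In the labelled control libraries Il2rg was first at 129 ± 3.74 CPM per kilobase, followed by Il2rb (43.2 ± 3.89), Il7r (34.4 ± 3.87), Jak1 (29.4 ± 2.59), Il4ra (23.4 ± 6.19), Il2ra (13.2 ± 2.31), Jak3 (5.86 ± 1.88), Il21r (3.90 ± 0.973) and Il15ra (1.47 ± 0.872). There Il7r and Jak1, Jak1 and Il4ra, and Jak3 and Il21r overlapped. Merged exons count every annotated exon once, so a gene with long exons that these cells do not use is placed too low.

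**Figure D4:**
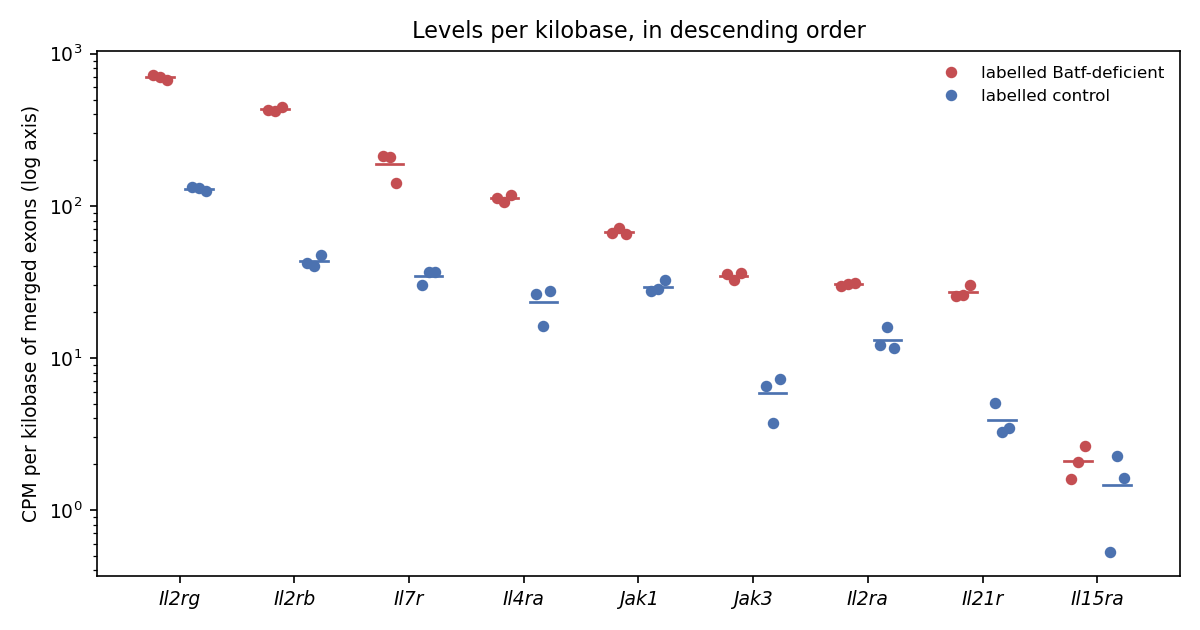
CPM per kilobase of merged exons on a log axis, with genes in the order of the libraries labelled Batf-deficient; points are libraries and lines means of 3. Il2rg leads in both groups, and Jak1 and Il4ra, like Il2ra and Jak3, change places between the groups.

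The other genes of the pathway were read from lists of ligands, partner receptors, signalling proteins, feedback regulators and targets. Of 43 such genes, 40 could be tested; 24 were called higher and 6 lower, and with the 11-gene scaling 2 (Stat5b and Cish) were higher and 32 lower. Over all genes tested, 30.2% were called higher and 34.1% lower by TMM, and 2.14% and 85.4% with the 11-gene scaling, so the 32 lower calls are near that background. For the 40 pathway genes the median log2 fold change by TMM was 0.78. Of 8 ligand genes, 5 could be tested, none was higher and 2 were lower. Il7, the stromal and epithelial cytokine that sustains innate lymphoid cells, had 2.08, 1.42 and 1.77 CPM in libraries labelled Batf-deficient, against 5.75, 3.66 and 4.31 CPM in labelled controls (log2 fold change -1.37, SE 0.42, adjusted p by edgeR = 0.0138). Il15, made by myeloid and epithelial cells among others, had 2.08, 1.85 and 1.69 CPM in libraries labelled Batf-deficient, against 2.36, 5.84 and 6.75 CPM in labelled controls (log2 fold change -1.43, SE 0.47, adjusted p by edgeR = 0.0192). Both were lower with the 11-gene scaling too, at -3.70 and -3.76. They rest on few reads, and their calls were lost without replicate 2 labelled Batf-deficient (edgeR adjusted p = 0.0570 and 0.0511). For Il15 the same held without replicate 3 labelled Batf-deficient, control replicate 2 or control replicate 3 (edgeR adjusted p = 0.0576, 0.0524 and 0.0659). Tslp, an epithelial cytokine whose receptor uses the Il7r chain, had 0 counts in every library labelled Batf-deficient and 3, 20 and 20 counts in the labelled control libraries. The lymphocyte cytokines Il2, Il4 and Il21 had few reads and were not called by edgeR with TMM factors, at log2 fold changes of 1.36, 1.42 and 0.36, against -0.96, -0.89 and -1.96 with the 11-gene scaling. Of these, Il21 was called lower with the 11-gene scaling (edgeR adjusted p = 0.0202), and Il4 was called higher by limma voom (adjusted p = 0.0330) and without control replicate 1 (edgeR adjusted p = 0.0380).

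Among the partner receptors and other JAKs, 1 of 5 genes was higher and 1 lower, beside 30.2% and 34.1% of all genes tested. With the 11-gene scaling 0 of the 5 were higher and 4 lower, beside 2.14% and 85.4% of all genes. Crlf2, the chain that joins Il7r in the receptor for TSLP, had 41.7, 45.5 and 54.9 CPM in libraries labelled Batf-deficient, against 10.4, 11.05 and 18.6 CPM in labelled controls (log2 fold change 1.82, SE 0.23, adjusted p by edgeR = 2.03e-05), and -0.51 with the 11-gene scaling. Il13ra1, which pairs with Il4ra in a receptor for IL-4 and IL-13, averaged 1.83 ± 0.692 CPM in libraries labelled Batf-deficient and 48.9 ± 7.59 CPM in labelled controls (SD, n = 3 each; log2 fold change -4.76, SE 0.26, adjusted p by edgeR = 1.16e-08), and was at -7.11 with the 11-gene scaling. Jak2 and Tyk2, the other JAKs of the list, were not called with TMM factors, at 0.09 and 0.11. With library totals they were at -0.29 and -0.27, and Jak2 was called lower (edgeR adjusted p = 0.0466). The 11-gene scaling called them lower, at -2.25 and -2.24. Il9r, the chain for IL-9, averaged 0.726 ± 0.349 CPM in libraries labelled Batf-deficient and 1.65 ± 0.913 CPM in labelled controls (SD, n = 3 each) and was not called with TMM factors; the 11-gene scaling called it lower, at -3.49 (edgeR adjusted p = 0.000319).

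Of 11 STATs and adaptors, 9 were higher and 1, the adaptor Grb2, was lower. With the 11-gene scaling 1 of the 11 was higher and 8 lower. Over all genes tested the shares were 30.2% higher and 34.1% lower by TMM, and 2.14% and 85.4% with the 11-gene scaling. Grb2 was at -0.38, or -2.72 with the 11-gene scaling, and its call by TMM was lost without replicate 1 labelled Batf-deficient or control replicate 1 (edgeR adjusted p = 0.0743 and 0.0609). The STAT5 genes had the lowest p-values of the list. Stat5b averaged 177 ± 2.40 CPM in libraries labelled Batf-deficient and 28.2 ± 0.501 CPM in labelled controls (SD, n = 3 each; log2 fold change 2.65, SE 0.10, adjusted p by edgeR = 6.51e-10). Stat5a averaged 144 ± 2.86 CPM in libraries labelled Batf-deficient and 25.03 ± 2.86 CPM in labelled controls (SD, n = 3 each; log2 fold change 2.52, SE 0.12, adjusted p by edgeR = 4.03e-09). With the 11-gene scaling they were at 0.31 and 0.19, and Stat5b kept its call. Pik3cd, the leukocyte PI3-kinase subunit, and Stat3 had log2 fold changes of 2.19 and 1.66, and -0.15 and -0.68 with the 11-gene scaling. Stat6, which acts after IL-4, had 0.76 and -1.57.

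Of 11 feedback regulators and phosphatases, 10 were higher, beside 30.2% of all genes tested. Stam was lower, at -1.26 (SE 0.21, edgeR adjusted p = 0.000197), beside 34.1% of all genes, and was at -3.59 with the 11-gene scaling. With that scaling 1 of the 11 was higher and 10 lower. Over all genes 2.14% were higher and 85.4% lower with it, so the 10 lower calls are near that background. The calls of Socs2, Ptpn11 and Stam2 were lost with library totals (edgeR adjusted p = 0.328, 0.629 and 0.445). That of Ptpn11 was also lost without any 1 of the libraries labelled Batf-deficient (edgeR adjusted p = 0.0623, 0.0728 and 0.0678), and that of Stam2 without replicate 1 or 2 so labelled (edgeR adjusted p = 0.0724 and 0.115). Cish, a STAT5 target that restrains signalling at these receptors, averaged 1102 ± 23.8 CPM in libraries labelled Batf-deficient and 154 ± 19.8 CPM in labelled controls (SD, n = 3 each; log2 fold change 2.84, SE 0.11, adjusted p by edgeR = 5.77e-10), and stayed higher with the 11-gene scaling at 0.51 (edgeR adjusted p = 0.000318). The phosphatase gene Ptpn6, the ubiquitin ligase gene Cbl and the suppressor Socs3 had 1.85, 1.09 and 0.92, which the 11-gene scaling turned to -0.49, -1.25 and -1.42. Of 8 survival and growth targets, 4 were higher and Mcl1 was lower by TMM. With the 11-gene scaling 0 of the 8 were higher and 7 lower. One of the 4, Pim2, rests on uneven libraries: its call was lost without any 1 of 5 of them and with the 11-gene scaling, where it was at 2.20 (edgeR adjusted p = 0.138). Pim1, a kinase induced by STAT5, the cyclin gene Ccnd2 and the survival gene Bcl2l1 had 0.87, 0.74 and 0.94, and -1.47, -1.60 and -1.40 with the 11-gene scaling. Bcl2, a survival gene downstream of IL-7, was at 92.7 ± 8.53 CPM in libraries labelled Batf-deficient and 86.5 ± 8.99 CPM in labelled controls (SD, n = 3 each) and was not called (edgeR adjusted p = 0.492), whereas the 11-gene scaling called it lower, at -2.24 (edgeR adjusted p = 5.16e-08).

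**Figure D5:**
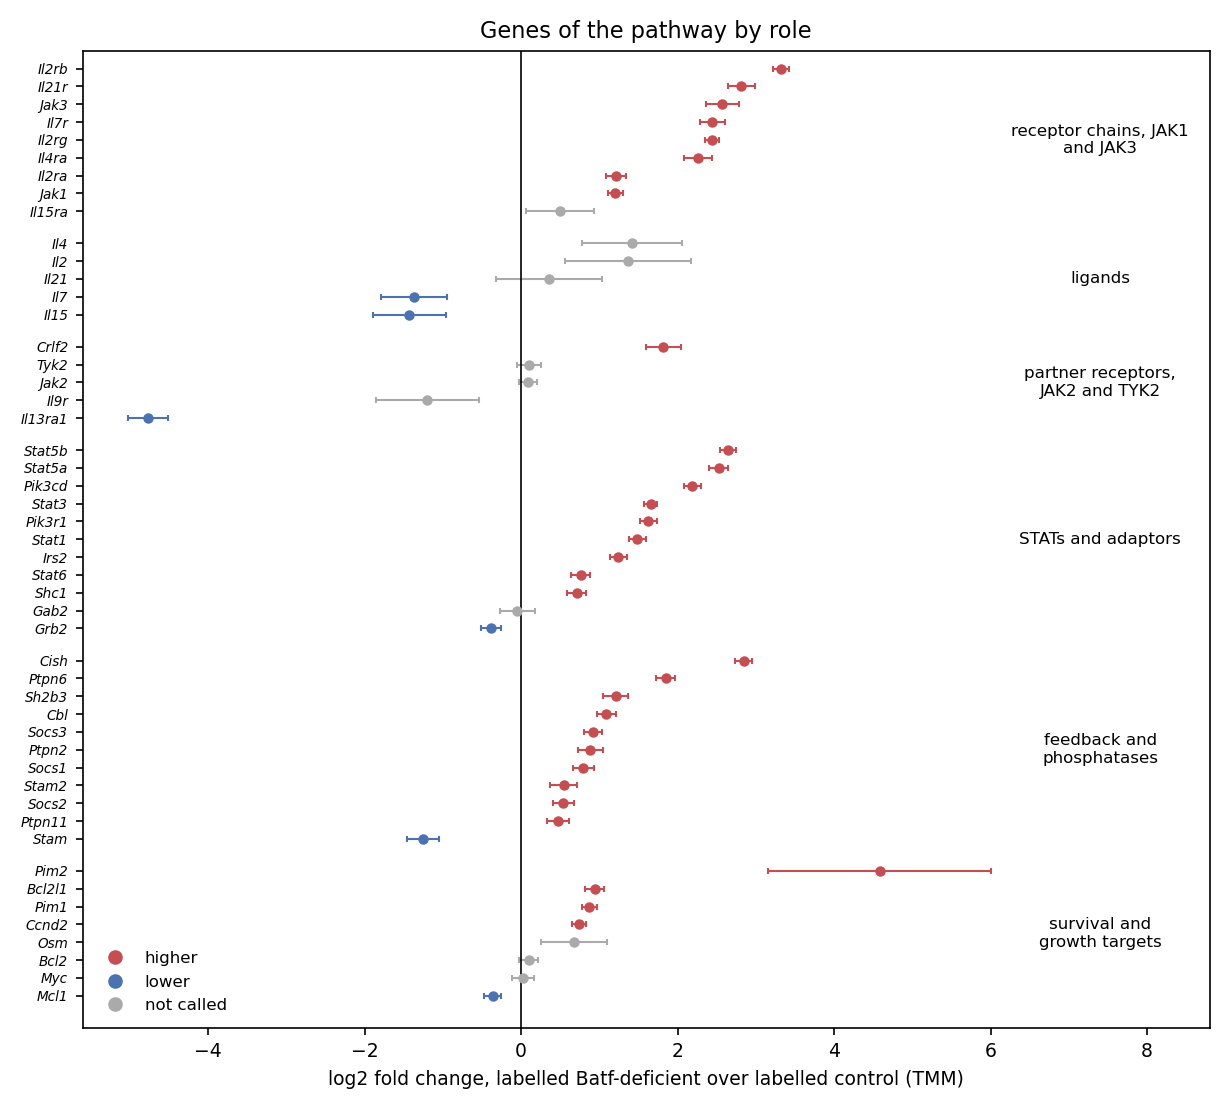
Log2 fold changes with SE bars (labelled Batf-deficient over labelled control, TMM) of the tested genes, grouped by role and coloured by the edgeR call. The receptor chains, STATs and feedback genes lie mostly to the right of 0, and Il7, Il15 and Il13ra1 to the left. With the 11-gene scaling 32 of the genes outside the receptor and kinase group were called lower.

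Genes whose pattern over the 6 libraries was most like that of Il2rg were sought among 8452 genes, by the root mean square difference of log2 CPM centred on each gene's mean. The 5 closest were S1pr4, Hspd1, Basp1, Junb and Cyfip2, at 0.0614 to 0.0757 log2 units. For Il7r they were Cacybp, Dnajb4, Cnbp, Stk17b and Rabgap1l, at 0.0722 to 0.127 log2 units. The measure reads both the difference between groups and the spread within them.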

How the data were processed

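RNA of sorted small-intestinal ILC3s was measured in 6 mouse libraries, 3 labelled Batf-deficient and 3 labelled control, grouped by their titles. The authors deposited 1 table of raw, whole-number counts with a row for each symbol. Its build, per the submitters' processing notes, was mm10; which aligner, counter, annotation and strand setting were used is not given in the sources at hand, so reads of overlapping genes may be shared between them. Smart-seq2 has no molecular identifiers, so counts are reads and floors of 3 counts cover counting error only.

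Genes were kept by filterByExpr (minimum count 10) in edgeR 4.0.16 under R 4.3.3, which left 15261 genes, all 9 members among them. A quasi-likelihood model with TMM factors and group as its only term was fitted to all 6 libraries, with two-sided p-values, Benjamini-Hochberg adjustment over the 15261 genes and a threshold of 0.05. SEs are the log2 fold change divided by the square root of the F statistic. The 11-gene scaling set each library's size to the geometric mean of its 11 counts. Ratios within a library were tested by exact permutation. Lengths and coordinates are from GENCODE M21. Alternatives were limma 3.58.1, DESeq2 1.42.0, other scalings and left-out libraries.

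Named genes were the 9 members, Batf, at most 4 called genes per pathway list in order of p, and the 5 genes most like Il2rg and Il7r in pattern; other pathway genes given with values (Tslp, Il2, Il4, Il21, Jak2, Tyk2, Il9r, Stat6, Grb2, Stam, Pim2, Socs2, Ptpn11, Stam2 and Bcl2) and Thy1 were added after their values were seen. A marker of ILC3s, a marker of B cells and a gene of the scaling set are not reported here and were left out of their lists. The members and lists were chosen with earlier results of these data known. The closest pair of libraries was replicates 1 and 2 labelled Batf-deficient (mean chi-square 2.36 per gene, against 14.8 to 24.2 for the other pairs within a group); they were counted as separate samples.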

Additional observations from a re-analysis of the deposited data

How the results depend on the processing

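Under 13 alternatives (library totals, DESeq2 size factors in edgeR, DESeq2, limma voom, no filter on low counts, a replicate block, 6 single libraries left out, and replicates 1 and 2 labelled Batf-deficient averaged), the same 8 members passed as higher and Il15ra did not. The lowest log2 fold change among the called members was 0.82 for Jak1, with library totals, and the highest was 3.40 for Il2rb. With library totals 3048 genes were called higher, against 4612 with TMM factors, which moved the median over all genes by -0.38. Scaling on 11 genes, added after the data were seen, shifted that median by -2.34 and gave 327 genes higher and 13036 lower. It called 5 members, 2 higher and 3 lower, and 2 pathway genes higher and 32 lower. It gave -1.14 for Il2ra, -1.85 for Il15ra and -1.13 for Jak1, and 0.10, 0.11, -0.0638 and 0.25, without a call, for Il2rg, Il7r, Il4ra and Jak3; the cause was not tested. Some uncalled ratios to Il2rg changed sign. With the 9 members' geometric mean as denominator, Il7r was at 0.31 and Il4ra at 0.18; with that of the 11 genes they were at 0.0894 and -0.04. Leaving out single libraries gave -0.12 to 0.15 for Il7r, -0.389 to 0.0247 for Il4ra and -0.12 to 0.40 for Jak3, moved the median over all genes by at most -0.14 (without replicate 3 labelled Batf-deficient), and called 3603 to 4705 genes higher. Adding replicate number as a replicate block left 8 members called, with Il2rb at 3.33. The numbers were not treated as pairs, since deviations of same-numbered libraries correlated at 0.0106, 0.0353 and 0.0475, and the block changed no member's call. The ILC and T cell panel listed among the alternatives was not at hand and was not run; the 11 genes stand in for it. Few reads limit Il15ra and the ligand genes.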

Other observations

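Ratios between other members, which no scaling of the libraries affects, were also read. Reads of Il2ra per read of Il2rb numbered 0.0931, 0.0961 and 0.0931 in libraries labelled Batf-deficient, against 0.385, 0.528 and 0.325 in the labelled control libraries. Reads of Il7r per read of Il2rb numbered 0.538, 0.538 and 0.346 in libraries labelled Batf-deficient, against 0.773, 0.995 and 0.843 in the labelled control libraries. These pairs were picked after the values were seen and were not tested. Reads of Il2rg per read of Thy1 numbered 3.87, 4.03 and 3.25 in libraries labelled Batf-deficient, against 7.95, 6.59 and 5.99 in the labelled control libraries.

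Pim2, a survival kinase, was uneven between libraries: it had 21, 271 and 415 counts in libraries labelled Batf-deficient, against 15, 32 and 0 counts in the labelled control libraries. Its call (log2 fold change 4.58, SE 1.42, adjusted p by edgeR = 0.0402) was lost without any 1 of 5 libraries and stayed without replicate 1 labelled Batf-deficient (edgeR adjusted p = 0.0120); without the others the adjusted p by edgeR ran from 0.0523 to 0.120. Il2 had 23, 27 and 33 counts in libraries labelled Batf-deficient, against 0, 31 and 35 in the labelled control libraries, where 3 counts corresponded to 0.283 CPM in replicate 1. Among the labelled control libraries, Il15ra and Il15 were both lowest in replicate 1, with 25 and 25 counts. Il15 had fewer counts in the libraries labelled Batf-deficient, at 15, 13 and 21.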
